A study of Homo sapiens with 8 samples.

Results

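The classical cadherins and catenins described here are 6 genes, E-cadherin (CDH1), N-cadherin (CDH2), alpha-catenin (CTNNA1), beta-catenin (CTNNB1), p120-catenin (CTNND1) and plakoglobin (JUP), out of 58735 genes in the deposited expression table. They were selected by gene name, and the choice was made with the difference between the groups in these same libraries known, CDH2 being among the largest rises. Their values between the groups are therefore given as a description, with no p-value and no call. RNA was measured in HepG2, a widely used cell line from a human liver carcinoma. The control group was 4 libraries of cells that received a control lentivirus (genotype given as WT), and the DNMT3A group was 4 libraries of cells whose lentivirus overexpressed DNMT3A, a de novo DNA methyltransferase. All 8 libraries thus come from 1 cell line and from infected cells, the library names of both groups carry pLV_EGFP, and the labels do not name the promoter of the transgene, the time after infection or whether a group's libraries were separate cultures. Levels are FPKM, fragments scaled to gene length and to a total for each library. All 6 genes passed the filter of a mean of at least 1 FPKM, which left 11620 genes.

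Classical cadherins are single-pass membrane proteins that bind the same cadherin on a neighbouring cell in the presence of calcium. Their cytoplasmic tails hold p120-catenin near the membrane and beta-catenin or plakoglobin further along, and alpha-catenin links the complex to actin. E-cadherin is the typical cadherin of epithelia and N-cadherin that of neural and mesenchymal cells, while hepatocytes are known to carry both. A fall of E-cadherin with a rise of N-cadherin is often called a cadherin switch and is a textbook mark of the epithelial-mesenchymal transition.

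The libraries held 15911019 to 17677093 reads, recovered from the FPKM values and the gene lengths. The total implied by the scaling was not the sum of these reads. It was 18310800 against 17626137 reads in DNMT3A library 2, and 15829500 against 15911019 reads in control library 3. Why they differ was not tested. DNMT3A ranged from 3.45 to 3.89 FPKM in the control libraries and from 7.26 to 10.2 FPKM in the DNMT3A libraries. All 8 hepatocyte markers were present at a mean of at least 1 FPKM, with sums of 9133 to 9672 FPKM in the controls and 8678 to 11361 FPKM in the DNMT3A libraries. None of 8 fibroblast and stellate cell markers reached that level. Their sum was 0.387 to 0.684 FPKM in the controls and 0.509 to 0.774 FPKM in the DNMT3A libraries, with PDGFRA and LUM at 0 in all libraries. None of 5 endothelial markers (0.435 to 0.547 and 0.565 to 0.679 FPKM in sum, with KDR and TEK at 0) and none of 4 leukocyte markers (1.11 to 1.598 and 0.638 to 0.695 FPKM in sum, with PTPRC and CD3E at 0) reached it either. Nearly all of the leukocyte sum was CD14, a monocyte surface receptor that was above 1 FPKM in each control library (mean 1.34 ± 0.235 FPKM) and below it in each DNMT3A library (0.652 ± 0.0290 FPKM; SD, n = 4). Its part in the results below was not tested. In bulk RNA, a change in the share of cells that express a gene and a change in RNA per cell cannot be told apart.

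N-cadherin RNA was 4.21-fold higher with DNMT3A, and E-cadherin RNA was 1.24-fold higher. The beta-catenin, alpha-catenin and plakoglobin RNAs had lower means than in the controls (a change of -7.30%, -10.5% and -17.2%), and the p120-catenin mean was 12.8% higher. Groups were fully separate for 4 of the 6, CDH1, CDH2, CTNNA1 and JUP, against 25.1% of all tested genes. Since this comparison was known when the genes were chosen, nothing is read from that count. The CDH1 difference was smallest without DNMT3A library 3, at a log2 difference of 0.24, and that of CTNNA1 stayed between -0.17 and -0.14 when any 1 library was left out.

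**Figure D1:**
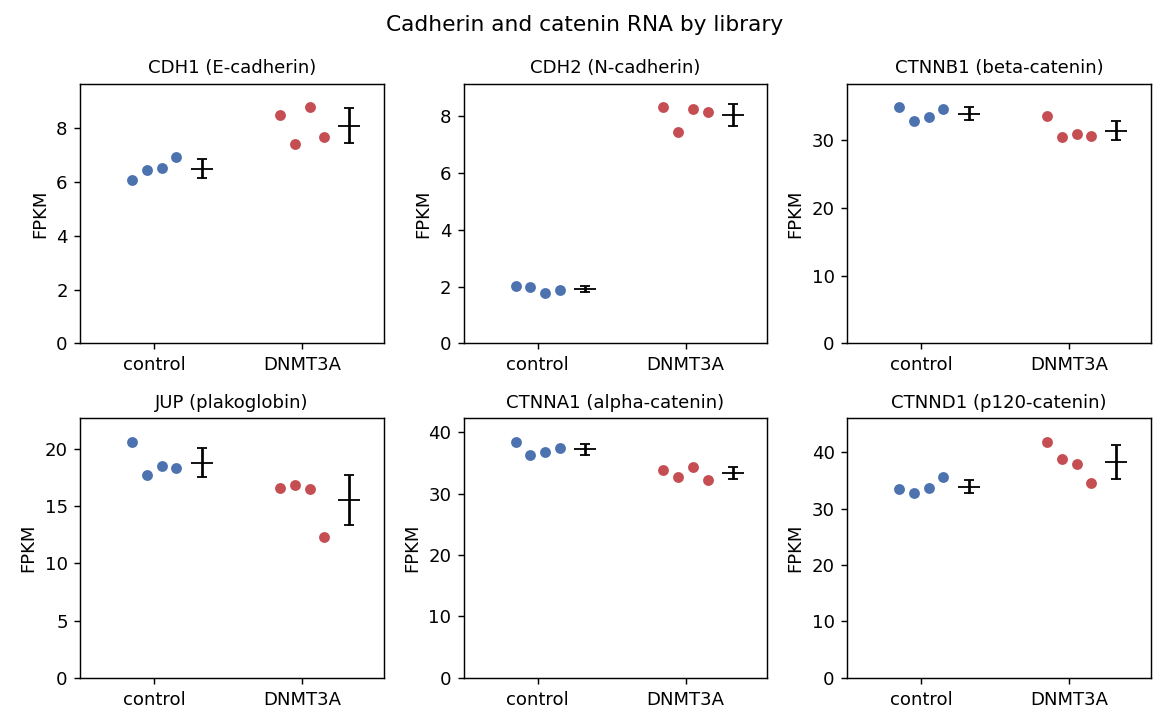
FPKM of the 6 genes in each library, in 6 panels with axes from 0; points are libraries 1 to 4 of each group from left to right, and the bar beside them is the mean with its SD (n = 4). The N-cadherin panel shows control libraries near 1.91 FPKM and DNMT3A libraries near 8.04 FPKM, whereas the means of the 4 catenins differ by between -17.2% and 12.8% of the control mean.

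CDH2 (ENSG00000170558, hg38 chromosome 18, 27950966 to 28177446, minus strand) encodes N-cadherin. Its level was 2.02, 1.98, 1.76 and 1.87 FPKM in control libraries 1 to 4 and 8.31, 7.45, 8.26 and 8.15 FPKM in DNMT3A libraries 1 to 4. Every DNMT3A library was far above every control library, and the spread inside either group was small beside the gap. These values rest on 138 to 169 reads in the controls and 675 to 718 reads in the DNMT3A libraries. The means were 1.91 ± 0.116 and 8.04 ± 0.402 FPKM (SD, n = 4), a log2 difference of 1.64 ± 0.06 (SE) on the log2(FPKM + 1) scale. That scale understates the difference of a gene this low, and without the added 1 the log2 difference was 2.08 ± 0.06 (SE). By the size of the log2(FPKM + 1) difference CDH2 was the ninth of the 11620 tested genes and the third among those that were higher.

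The bases ahead of the annotated starts of CDH2 are shown because CDH2 had the largest difference of the 6 genes and because the cytosine of a CpG is the substrate of DNMT3A. Both windows are the 250 bases before a RefSeq start on GRCh38.p14, minus strand, written 5′ to 3′ with each CpG in capitals. The first lies at chr18:28177131-28177380 and the second at chr18:28036642-28036891, and both are inside the gene as the expression table bounds it, the first near its 5′ end and the second further in.
CDH2 first start: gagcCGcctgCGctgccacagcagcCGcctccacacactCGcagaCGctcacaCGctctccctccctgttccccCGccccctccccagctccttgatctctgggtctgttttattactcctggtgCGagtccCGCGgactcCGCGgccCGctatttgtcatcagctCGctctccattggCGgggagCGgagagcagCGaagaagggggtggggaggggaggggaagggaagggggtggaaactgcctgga
CDH2 second start: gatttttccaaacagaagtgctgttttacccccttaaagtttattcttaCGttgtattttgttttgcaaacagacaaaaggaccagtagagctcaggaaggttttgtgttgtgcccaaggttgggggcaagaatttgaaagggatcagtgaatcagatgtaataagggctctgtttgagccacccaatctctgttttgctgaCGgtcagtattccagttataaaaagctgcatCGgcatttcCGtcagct
The window before the first start held 17 CpGs, more than 61.0% of the 35116 RefSeq windows of the same length, whose median was 11. The window before the second start held 4, more than 29.3% of them. Windows were matched for 4 of the 6 genes, CDH2, CTNNA1, CTNNB1 and JUP. Among the others, the CTNNB1 window held 34 CpGs, the JUP windows 17 and 13, and the 4 CTNNA1 windows 3 to 39. The table gives 1 value per gene, so the 2 starts of CDH2 were not told apart, and DNA methylation was not measured in the data used here.

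CDH1 (ENSG00000039068, chromosome 16, 68737225 to 68835548, plus strand) encodes E-cadherin. It stood at 6.10, 6.47, 6.51 and 6.93 FPKM in control libraries 1 to 4 and at 8.51, 7.42, 8.78 and 7.67 FPKM in DNMT3A libraries 1 to 4. The lowest DNMT3A library was above the highest control, but the gap between them was smaller than the range inside either group. The means were 6.50 ± 0.342 and 8.10 ± 0.655 FPKM (SD, n = 4), a log2 difference of 0.28 ± 0.07 (SE). E-cadherin was thus not lower in any DNMT3A library than in any control.

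E-cadherin RNA exceeded N-cadherin RNA in every control library, and the 2 were close to equal in every DNMT3A library. The ratio of CDH1 to CDH2 FPKM was 3.02, 3.26, 3.70 and 3.71 in control libraries 1 to 4 and 1.02, 0.996, 1.06 and 0.942 in DNMT3A libraries 1 to 4. A ratio inside a library does not depend on how that library was scaled. The log2 ratio was 1.77 ± 0.14 in the controls and 0.01 ± 0.07 with DNMT3A (SD, n = 4), a difference of -1.76 ± 0.08 (SE). N-cadherin made up 21.2% to 24.9% of the CDH1 and CDH2 sum in the controls and 48.5% to 51.5% with DNMT3A. The sum itself was 8.41 ± 0.296 FPKM in the controls and 16.1 ± 1.003 FPKM with DNMT3A, and CDH2 accounted for 79.4% of the difference in means. The lengths in the table are 6177 bases for CDH1 and 4950 bases for CDH2, and whether reads came from the whole of these lengths was not tested, so near equality holds on this length scale. In reads, CDH1 stayed ahead of CDH2 in the DNMT3A libraries, with 833 to 943 against 675 to 718.

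**Figure D2:**
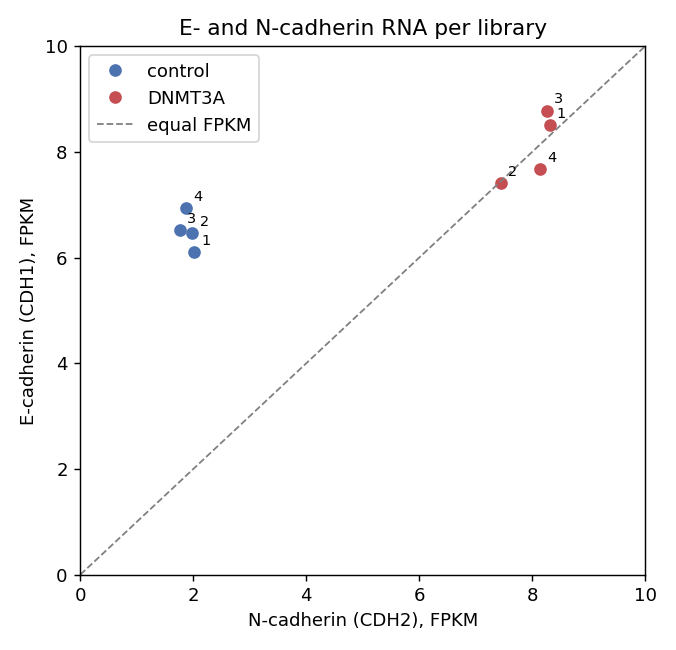
E-cadherin FPKM against N-cadherin FPKM, 1 point per library with its number, and a dashed line of equal FPKM. The 4 control libraries lie well above the line at ratios of 3.02 to 3.71, and the 4 DNMT3A libraries lie along it at 0.942 to 1.06.

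None of 20 other listed cadherins passed the filter. Their highest value in any library was 1.12 FPKM, for CDH24 in DNMT3A library 2, below the lowest CDH2 value of 1.76 FPKM. Of the 20, 8 were at 0 in all libraries and 8 more had a mean under 0.05 FPKM. The other 4, named after their values were seen, were CDH24 (0.742 ± 0.119 FPKM in the controls and 0.834 ± 0.255 with DNMT3A), CDH15 (0.774 ± 0.0484 and 0.590 ± 0.0905), CDH4, also called R-cadherin (0.489 ± 0.129 and 0.667 ± 0.150), and CDH16 (0.292 ± 0.0876 and 0.402 ± 0.0512; all SD, n = 4). The 20 together summed to 2.27 to 2.59 FPKM in the controls and 1.97 to 2.97 FPKM with DNMT3A. CDH1 and CDH2 therefore held 76.6% to 79.5% of the FPKM of these 22 cadherins in the controls and 83.4% to 89.5% with DNMT3A. Desmosomal cadherins were listed apart and are not part of that share. Among them DSG2 was at 26.2 ± 1.12 FPKM in the controls and 24.5 ± 1.77 FPKM with DNMT3A (SD, n = 4). That was above the CDH1 and CDH2 sum in both groups.

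Beta-catenin binds the cadherin tail and, when stabilised, acts in the nucleus with TCF factors. HepG2 cells are known to carry a deletion in CTNNB1 that stabilises the protein. CTNNB1 (ENSG00000168036, chromosome 3, 41194741 to 41260096, plus strand) was at 34.9, 32.8, 33.5 and 34.6 FPKM in control libraries 1 to 4 and at 33.6, 30.5, 31.0 and 30.7 FPKM in DNMT3A libraries 1 to 4. DNMT3A library 1 lay inside the control range and the other 3 lay below it. The log2 difference was -0.11 ± 0.05 (SE), from 33.9 ± 0.978 to 31.5 ± 1.46 FPKM (SD, n = 4). ULK4 overlaps CTNNB1 on the opposite strand, and whether the counting used strand was not tested, so reads in the overlap may belong to either gene. ULK4 had at most 186 reads in a library against 6319 to 7270 for CTNNB1.

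Plakoglobin is the close relative of beta-catenin that serves in adherens junctions and desmosomes. JUP (ENSG00000173801, chromosome 17, 41754604 to 41786931, minus strand) was at 20.6, 17.7, 18.5 and 18.4 FPKM in control libraries 1 to 4 and at 16.6, 16.8, 16.5 and 12.3 FPKM in DNMT3A libraries 1 to 4. All 4 DNMT3A libraries were below all controls, and library 4 lay well under the other 3. The log2 difference was -0.27 ± 0.10 (SE) and shrank to -0.16 without DNMT3A library 4. The ratio of JUP to CTNNB1 was 0.530 to 0.591 in the controls and 0.401 to 0.551 with DNMT3A, so the groups overlapped.

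Alpha-catenin couples the complex to actin, and p120-catenin keeps cadherins at the membrane. CTNNA1 (ENSG00000044115, chromosome 5, 138610967 to 138935034, plus strand) was at 38.4, 36.3, 36.8 and 37.5 FPKM in control libraries 1 to 4 and at 33.9, 32.7, 34.4 and 32.2 FPKM in DNMT3A libraries 1 to 4. All DNMT3A libraries were below all controls, by a log2 difference of -0.16 ± 0.05 (SE). CTNND1 (ENSG00000198561, chromosome 11, 57753243 to 57819546, plus strand) was at 33.6, 32.8, 33.7 and 35.6 FPKM in control libraries 1 to 4 and at 41.8, 38.7, 38.0 and 34.5 FPKM in DNMT3A libraries 1 to 4. DNMT3A library 4 lay inside the control range and the other 3 above it, with a log2 difference of 0.17 ± 0.06 (SE) over all libraries and 0.21 without that library. The ratio of CTNND1 to CTNNA1 did not overlap between the groups, at 0.873 to 0.9499 in the controls and 1.07 to 1.23 with DNMT3A. That of CTNNA1 to CTNNB1 did overlap, at 1.08 to 1.11 and 1.01 to 1.11.

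The order of the levels per gene length was CTNNA1, CTNNB1, CTNND1, JUP, CDH1 and CDH2 in the controls. CTNNB1 and CTNND1 did not differ there beyond their spread, with a ratio of CTNND1 to CTNNB1 of 0.962 to 1.03. With DNMT3A the order was CTNND1, CTNNA1, CTNNB1, JUP, CDH1 and CDH2. In those libraries the ranges of CTNNA1 and CTNNB1 overlapped, as did those of CDH1 and CDH2. The partners of the cadherin tail, CTNNB1 and JUP, summed to 6.28 ± 0.398 times the CDH1 and CDH2 sum in the controls and to 2.92 ± 0.209 times with DNMT3A (SD, n = 4), and the groups did not overlap. This ratio mostly restates the CDH2 difference. Its denominator was 8.41 FPKM in the controls and 16.1 FPKM with DNMT3A, while the CTNNB1 and JUP means changed by -7.30% and -17.2%. Such comparisons between genes depend on the lengths in the table, which reach 11927 bases for CTNNB1.

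The 6 genes lie on 6 chromosomes, and neither of the nearest tested genes of CDH2 was called. For these distances the start of a gene is its lower coordinate on either strand. For CDH2, on the minus strand, that is the 3′ end. The start of the sulfotransferase gene CHST9 lies at -1044 kb from that of CDH2. CHST9 had a log2 difference of -0.20 (limma adjusted p = 0.0878). The desmosomal cadherin gene DSC2, at 3108 kb, had -0.16 (limma adjusted p = 0.150). Of 6 tested genes starting within 2 Mb of CDH2, limma called 0. One of them, CHST9, had an unadjusted p under 0.05, and voom on the recovered reads called 0. TTR, the thyroxine carrier, starts 3.61 Mb above and was higher (log2 1.38, limma adjusted p = 8.71e-05). It was named after its value was seen. Within 5 Mb of CDH2, 3 of 23 tested genes were called higher (TTR, RIOK3 and HNRNPA1P7) and 3 lower (TTC39C, KLHL14 and CABLES1), against 9.93% and 10.6% of all tested genes. DSG2, another desmosomal cadherin gene between DSC2 and TTR, had -0.09 (limma adjusted p = 0.319).

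Around the other 5 genes the nearest tested neighbours included 2 calls. HSPA9, beside CTNNA1, fell by 0.18 on the log2 scale (limma adjusted p = 0.0249), and SELENOH, beside CTNND1, fell by 0.34 (limma adjusted p = 0.0143) while CTNND1 itself had a positive difference. The neighbours of CDH1 (ZFP90, log2 0.21, and the pseudogene FTLP14, 0.16) were not called. FTLP14 overlaps CDH1 on the same strand. It had at most 30 reads in a library against 600 to 943 for CDH1, and which gene its reads came from was not tested. The neighbours of CTNNB1 (the pseudogene AC099560.2, -0.50, and ULK4, 0.08) and of JUP (EIF1, -0.06, and P3H4, -0.24) were not called. Nor were SIL1 beside CTNNA1 (0.06) and ZFP91 beside CTNND1 (-0.14). Within 2 Mb, 5 of 68 tested genes were called higher and 11 lower around CDH1, 7 and 6 of 27 around CTNNA1, 1 and 1 of 16 around CTNNB1, 1 and 5 of 19 around CTNND1, and 13 and 5 of 74 around JUP. Of all tested genes 9.93% were called higher and 10.6% lower.

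**Figure D3:**
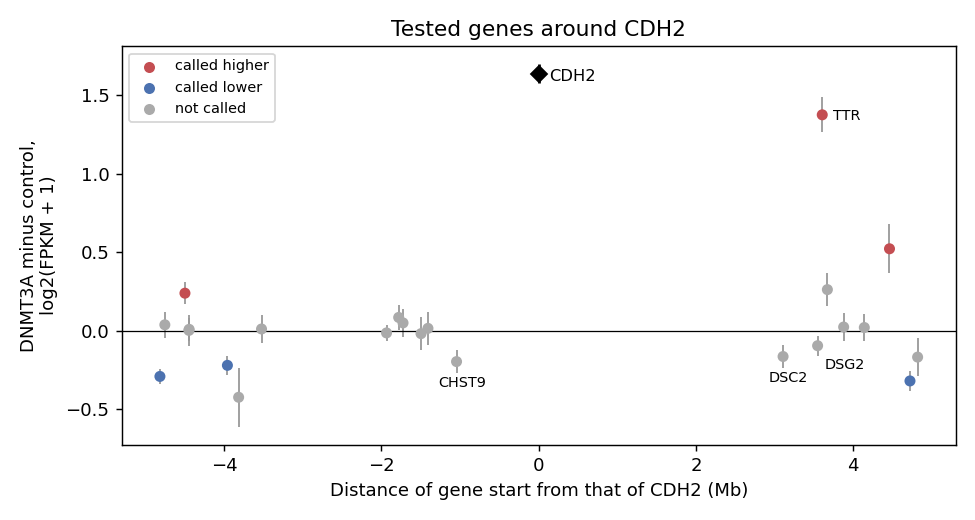
Log2 difference (DNMT3A minus control, log2(FPKM + 1), with SE) of tested genes against the distance of their start (lower coordinate on either strand) from that of CDH2 in Mb. Colours show genes called higher, called lower or not called, and the black diamond is CDH2. The 6 genes within 2 Mb lie between -0.20 and 0.09, and TTR at 3.61 Mb lies at 1.38.

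The protein-coding genes whose pattern over the 8 libraries was most like that of CDH2 were FGB, AFP and UGT2B4. Likeness was the root mean square distance between deviations from the control mean on the log2(FPKM + 1) scale, and it was 0.05 for the fibrinogen chain FGB, 0.13 for the fetal serum protein AFP and 0.20 for the glucuronosyltransferase UGT2B4. FGB stood at 34.5 ± 1.52 FPKM in the controls and 107 ± 9.13 FPKM with DNMT3A (SD, n = 4). For CDH1 the most like were THAP5, UPF2 and ZMYND8, each at a distance of 0.04, with log2 differences of 0.27, 0.31 and 0.29. The 8 libraries form 2 groups, so these distances mostly reflect the difference between them.

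Of 166 other genes of cell junctions and catenin biology, in 10 lists, 96 passed the filter, and most of these showed no call. In the limma fit 5 rose and 8 fell, 5.21% and 8.33% of the 96, against 9.93% and 10.6% of all tested genes. Together they were 13.5% against 20.6%, but the gap depended on the setting. It was 22.9% against 23.3% with voom on the recovered reads, 28.1% against 32.3% with array weights and, with 149 tested, 7.38% against 5.24% without the filter. Their median log2 difference in the limma fit was -0.03 against -0.01 over all tested genes. Called genes were 33.3% of the tested mesenchymal genes and 25% of the epithelial ones. In the other lists with tested genes the share was 0% to 16.7%. The count of rises was 15 with array weights, 13 with voom on the recovered reads, 3 with the replicate number as a block, 2 without control library 3 and 9 without DNMT3A library 4, and 3 when control library 2, DNMT3A library 1 or DNMT3A library 3 was left out.

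Among catenin relatives and actin linkers 1 of 15 tested genes rose and 1 fell. Both are nectins, adhesion molecules that work beside cadherins. NECTIN3 was at 2.95, 3.02, 3.003 and 3.53 FPKM in the controls and fell to 2.36, 1.62, 1.92 and 2.04 FPKM (log2 -0.47, limma adjusted p = 0.00624). NECTIN4 rose from 1.97, 2.22, 1.57 and 2.08 to 2.72, 3.71, 3.25 and 2.71 FPKM (log2 0.47, limma adjusted p = 0.0121). The groups did not overlap for either. The actin crosslinker ACTN4 (log2 -0.11) and the alpha-catenin relative CTNNAL1 (-0.14) were not called. CTNNAL1 passed the threshold only with array weights (log2 -0.18, limma adjusted p = 0.0294).

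In the desmosome list PKP3, a plakophilin of the same armadillo family as p120-catenin, fell from 21.1 ± 1.33 to 14.7 ± 2.39 FPKM (SD, n = 4; log2 -0.51, limma adjusted p = 0.00901), as the 1 call among 6 tested genes. Desmoplakin (DSP, log2 0.06) and PERP (0.06) were not called. Of 10 tight junction genes 1 fell, the scaffold TJP3, from 1.895 ± 0.201 to 1.17 ± 0.0858 FPKM (log2 -0.42, limma adjusted p = 0.00662). CLDN1 (log2 -0.12) and CLDN6 (-0.03) were not called, and the small CLDN6 difference turned positive with quantile normalization (0.01).

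Of 13 listed transcription factors known as repressors of E-cadherin 3 passed the filter and limma called 0 of them. At an unadjusted p under 0.05 there were 2, ZEB1 and SNAI1, and voom on the recovered reads called the same 2. ZEB1 was at 2.10, 2.12, 2.31 and 2.38 FPKM in the controls and at 2.93, 2.34, 2.59 and 2.78 FPKM with DNMT3A (log2 0.18, limma adjusted p = 0.111). SNAI1, named after its value was seen, was at 1.30, 0.827, 0.562 and 1.01 FPKM in the controls and at 1.597, 1.94, 1.64 and 1.15 FPKM with DNMT3A (log2 0.43, limma adjusted p = 0.0538). The groups overlapped for both. TCF3 had a log2 difference of 0.02, and TWIST1 was listed at 0 in all libraries.

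The called epithelial markers went in both directions, and all 3 called mesenchymal markers were lower. Of 8 epithelial genes 1 rose and 1 fell. The epithelial factor ELF3 rose from 1.49 ± 0.171 to 2.48 ± 0.262 FPKM (log2 0.48, limma adjusted p = 0.00459), and the adhesion molecule EPCAM fell from 96.2 ± 4.53 to 72.9 ± 2.29 FPKM (log2 -0.40, limma adjusted p = 0.00139; SD, n = 4). The keratins KRT8 (log2 -0.05) and KRT18 (-0.10) were not called, and the KRT8 difference turned positive with quantile normalization (0.02). Of 9 tested mesenchymal genes 3 fell, the matrix protein SPARC (log2 -0.46, limma adjusted p = 0.000747), the actin-binding TAGLN (-0.40, 0.0235) and the integrin chain ITGAV (-0.35, 0.00593). Those 3 were 33.3% of the 9, against 10.6% of all tested genes called lower. Fibronectin (FN1, log2 0.22, limma adjusted p = 0.126) was not called, although it passed the threshold with voom (0.0435) and without control library 4 (0.0490). Vimentin (VIM), an intermediate filament protein, was listed at 0 in all 8 libraries. CDC42, a GTPase that all cells use, was named after its value was seen and had a mean of only 0.196 FPKM. Whether such values at or near 0, among them those of VIM and TWIST1, reflect the counting was not tested. TAGLN missed the threshold when any one of control libraries 1, 2 and 3 and DNMT3A libraries 1 and 3 was left out (limma adjusted p = 0.0534 to 0.0669).

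Of 18 tested genes of cadherin shedding and turnover 2 rose, the endosomal GTPase RAB5A (log2 0.30, limma adjusted p = 0.0227) and the gamma-secretase subunit APH1A (0.26, 0.0316). RAB7A (log2 -0.04) and the phosphatase PTPRF (0.19) were not called, and RAB7A turned positive with quantile normalization (0.04). Of 17 genes of the beta-catenin destruction complex 1 fell, AXIN2, which is itself a target of beta-catenin signalling, from 16.0 ± 1.05 to 12.1 ± 1.92 FPKM (SD, n = 4; log2 -0.38, limma adjusted p = 0.0217). PPP2CA (log2 -0.22) and DVL1 (0.06) were not called. Of 10 nuclear partners of catenins 1 rose, PYGO2 (log2 0.26, limma adjusted p = 0.0461), while the beta-catenin inhibitor CTNNBIP1 (-0.07) and the p120-catenin partner ZBTB33 (-0.15) were not called. Leaving out a single library ended each of these calls. AXIN2 missed the threshold with any one of controls 1 and 4 and DNMT3A libraries 1 and 3 left out (limma adjusted p = 0.0531 to 0.0605), and RAB5A with any of controls 1 and 3 and DNMT3A library 1 left out (0.0529 to 0.0588). APH1A missed it with any of controls 2 to 4 and DNMT3A libraries 1 to 3 left out (limma adjusted p = 0.0573 to 0.0928), and PYGO2 with any of controls 1 to 3 and DNMT3A libraries 1 to 3 left out (0.0881 to 0.118). The replicate number as a block also ended the calls of APH1A (limma adjusted p = 0.0632) and PYGO2 (0.102).

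**Figure D4:**
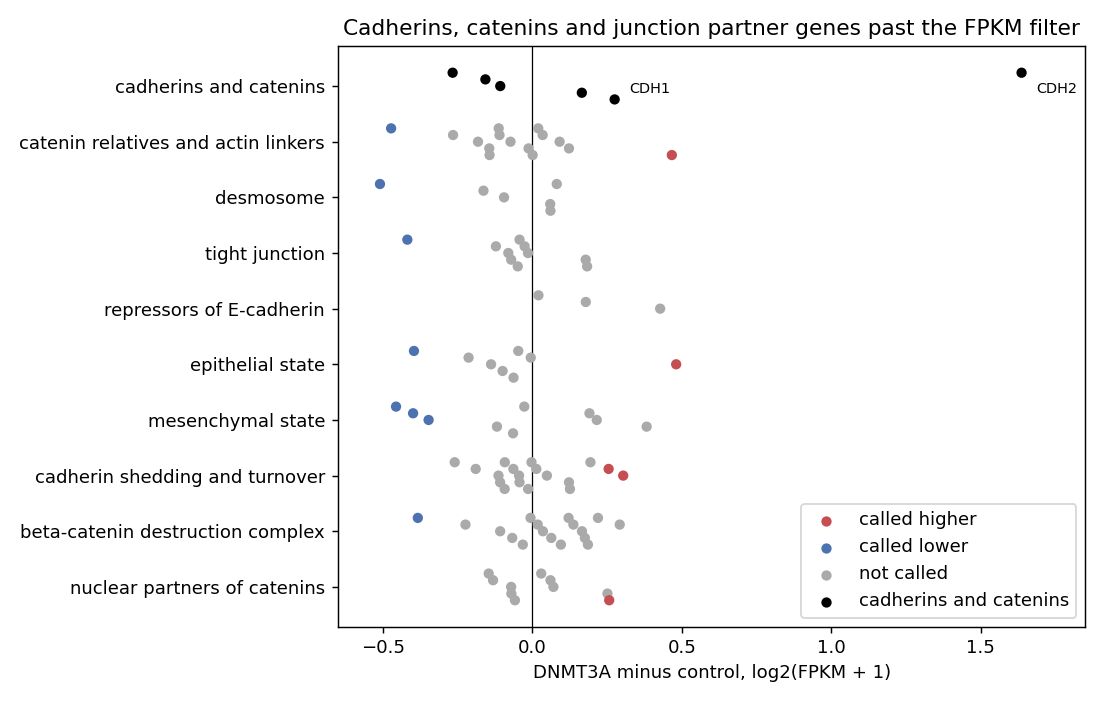
Log2 difference (DNMT3A minus control, log2(FPKM + 1)) of the 6 cadherins and catenins in the top row and of the 96 tested partner genes by list below, 1 point per gene, black for the 6 and coloured by limma's call for the partners. CDH2 stands at 1.64, and every partner gene lies between -0.51 and 0.48.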

How the data were processed

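The authors deposited FPKM values, 1 column per library, per the file headers. The submitters' processing notes name HISAT2 2.0.5 and hg38, and the counting program is not given in the sources used here. FPKM times gene length was a whole multiple of 1 step per library in 100% of cases (within 0.01 of a read), which gave the reads. Groups and replicate numbers came from the sample titles, and no 2 libraries were duplicates (chi-square per degree of freedom at least 4.26 within groups). Genes with a mean of at least 1 FPKM were compared on log2(FPKM + 1) with limma 3.58.1 in R 4.3.3 (intensity trend, Benjamini-Hochberg adjustment, threshold 0.05), checked on simulated data.

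The 6 genes and the 10 lists were chosen with earlier results of these data known. Named genes were the 6, the nearest tested gene on either side of each, the 3 protein-coding genes most like CDH1 and CDH2, DNMT3A, and from each list at most 4 called genes by size of difference plus at most 2 uncalled genes by mean level. Alternatives changed the pseudocount, the filter, the scaling (median-ratio, quantile), the trend, the array weights or the replicate block, or left out 1 library. Voom on the reads was added after the data were seen. Separate cultures are not stated, so p-values reflect the spread of these libraries alone, which may be technical.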

Additional observations from a re-analysis of the deposited data

Results flagged for a closer look

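In each of 26 groups of 4 values (the 6 genes, DNMT3A and 6 ratios or sums in either group) the value farthest from the others was examined, and 2 stood apart by a larger share of the group's range than Dixon's critical value. Chance gives about 1 such flag in 20 groups. JUP was at 12.3 FPKM in DNMT3A library 4, against 16.5 to 16.8 FPKM in the other 3. CTNNB1 was at 33.6 FPKM in DNMT3A library 1, against 30.5 to 31.0 FPKM in the other 3.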

How the results depend on the processing

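No difference of the 6 genes changed sign under any alternative. With a pseudocount of 0.1 the CDH2 log2 difference was 2.02, and with voom on recovered reads 2.095. With quantile normalization that of CTNNA1 was -0.10 and that of CTNNB1 -0.053, and the log2 ratio of CDH1 to CDH2 with a pseudocount of 1 differed by -1.36. Leaving out 1 library gave ranges of 0.24 to 0.31 for CDH1, 1.61 to 1.67 for CDH2, -0.17 to -0.14 for CTNNA1, -0.14 to -0.09 for CTNNB1, 0.12 to 0.21 for CTNND1, -0.30 to -0.16 for JUP and -1.82 to -1.72 for the log2 ratio. All genes called numbered 2389, 3756 with array weights, 1596 without a filter (of 30436 tested) and 1491 to 2454 without 1 library, lowest without control library 3 (1491) and control library 2 (1540). Partner genes called higher numbered 5, 15 with array weights, 13 with voom and 2 to 9 without 1 library, and those called lower 8, 12 with array weights, 9 with voom and 6 to 10 without 1 library. The causes were not tested.

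Same-numbered libraries of the 2 groups deviated from their group means with correlations of 0.16, -0.08, -0.02 and 0.10 across genes. Of the 4 control libraries 1 correlated best with its own number. These values show no clear pairing by number, but with 4 libraries per group they cannot settle whether the numbers pair the libraries. With the replicate block 1881 genes were called, 3 partner genes were higher, and the log2 ratio difference was -1.76.

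Small uncalled differences reversed when 1 library was left out, over ranges of -0.0207 to 0.155 for DVL1, -0.0682 to 0.121 for TCF3, -0.123 to 0.0284 for KRT8 and -0.0851 to 0.0186 for CLDN6, and with quantile normalization for RAB7A (0.039), KRT8 (0.021) and CLDN6 (0.0052). Without a filter AXIN2, RAB5A, APH1A, TAGLN and PYGO2 were not called (limma adjusted p = 0.0666 to 0.117). CDH2 rests on 138 to 169 reads in the controls, the lowest depth among the 6 genes.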
